A study of Mus musculus with 6 samples.

Results

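Foxp3 and 7 further genes known from regulatory T cells were followed in CD4 T cells cultured with a normal or a reduced supply of arginine. The 8 genes, chosen by name, were Foxp3, Ikzf2, Ikzf4, Nrp1, Gpr83, Lrrc32, Itgae and Rgs16, out of 22180 genes with a probe set of their own on the array. Each had 1 probe set that carried its symbol alone, and all 8 lay above the limit of 2.48 on the log2 scale under which genes were left out as dim (a share of 0.333 of them), so all 8 were among the 14787 genes tested.

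Regulatory T cells restrain immune responses, and the forkhead transcription factor Foxp3 defines and maintains them. Cells of this lineage arise in the thymus or from conventional CD4 T cells in the periphery, where transforming growth factor beta and interleukin 2 favour Foxp3. Conventional mouse CD4 T cells carry little Foxp3, so its level in a CD4 culture is commonly read together with that of other regulatory T cell genes.

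The cells came from OT II transgenic mice aged 12 to 16 weeks, whose T cell receptor recognises an ovalbumin peptide. CD4 T cells, purified by removing cells that bound antibodies to B220, MHC class II, CD11b, CD49b or CD8, were mixed with antigen-presenting cells and the peptide and kept for 72 hours. The control group (3 arrays) had complete RPMI-1640 with 10% dialyzed FBS, and the low arginine group (3 arrays) had RPMI-1640 with the same serum and 1% of the normal arginine, which is 12 uM. CD4 cells were purified again before RNA was taken, and total RNA was put on 1-colour whole-transcript arrays. Both groups therefore share the transgene, the antigen-presenting cells and the stimulation. The study used 6 mice, and the labels call the samples biological replicates without saying which mice gave which array or whether mice were pooled. Nothing in the labels says that Foxp3+ cells were removed or sorted.

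The deposited values were read as log2 expression values, the base being inferred from their range. They ran from 0.956 to 12.41. The array medians lay between 2.97 and 3.03. Cd3e, a subunit of the T cell receptor complex, was at 10.72 to 10.80 in the controls and 10.78 to 10.94 in low arginine, and Cd4 at 10.20 to 10.44 and 9.96 to 10.29. Control replicate 1 stood apart from its group on the principal component after the one that separates the groups, at 35.2 beside -8.53 and -22.3. Of the 14787 genes tested, 1799 (12.2%) differed between the groups (limma, Benjamini-Hochberg adjusted p below 0.05), 767 of them higher (5.19%) and 1032 lower (6.98%) in low arginine. Of 9 CD4 T cell markers tested, Cd3e and Cd4 among them, 0 passed this threshold. Their median difference was -0.16, with 3 of the 9 above 0. For 2 of the 9 the groups did not overlap, low arginine being lower, beside 16.2% of all genes tested. Centring the arrays on their 75th percentile gave 535 higher and 1190 lower genes.

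Of the 8 genes, 4 rose in low arginine: Foxp3, Nrp1, Gpr83 and Rgs16, by 1.75 to 1.98 on the log2 scale, or 3.36-fold to 3.96-fold. The other 4 (Ikzf2, Ikzf4, Lrrc32 and Itgae) did not pass the test, with differences from 0.21 to 0.97, and 0 fell. These 4 of 8 higher genes stand beside 5.19% of all genes tested. The groups did not overlap, low arginine being higher, for 5 of the 8 genes, the 4 that rose and Ikzf4, beside 16.0% of all genes tested. The median difference was 1.36 over the 8 genes and 0.01 over all genes tested. The genes were chosen with results of these data known, so these shares describe them and are no test.

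**Figure D1:**
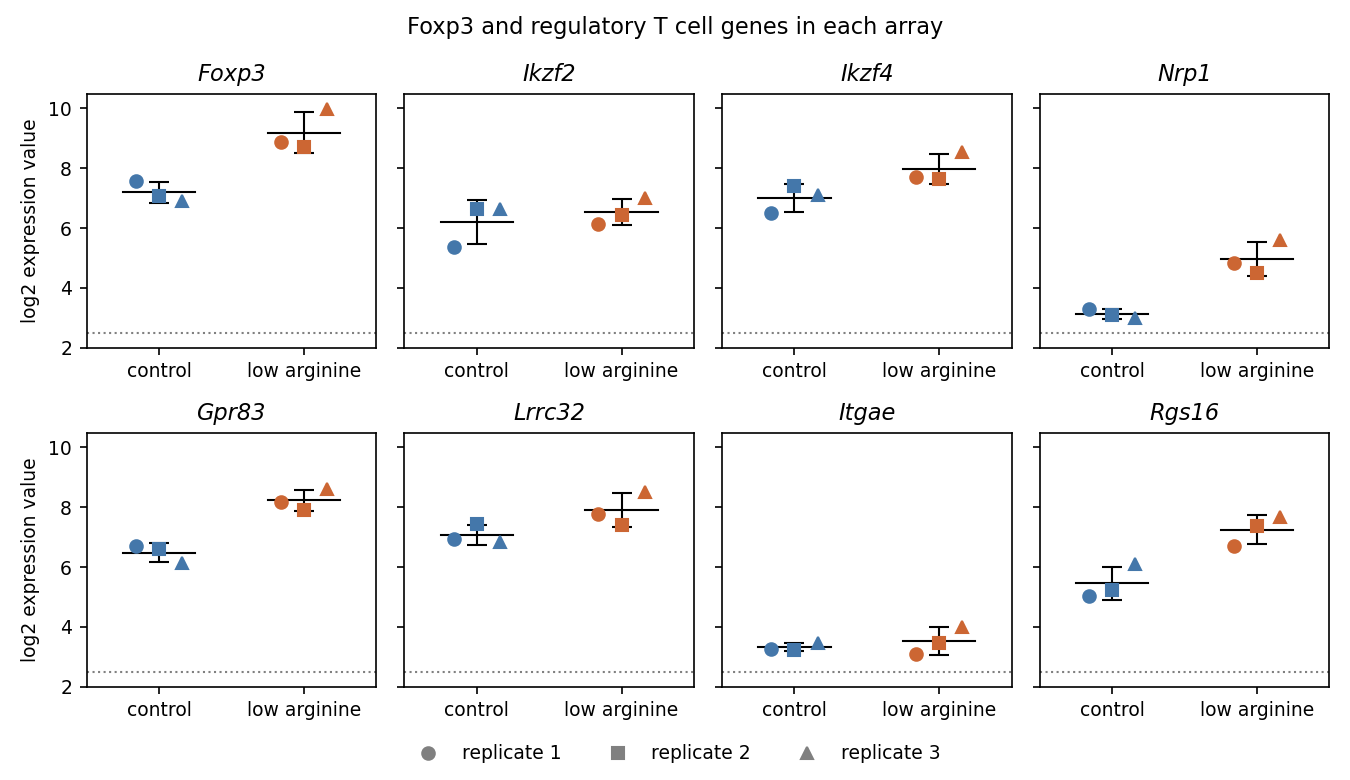
Log2 expression value of each of the 8 genes (vertical axis) in the 3 control and the 3 low arginine arrays. Symbols mark replicate numbers, horizontal lines with bars give the group mean and SD, and the dotted line is the limit for dim genes at 2.48. The groups are apart for Foxp3, Ikzf4, Nrp1, Gpr83 and Rgs16 and overlap for Ikzf2, Lrrc32 and Itgae.

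Foxp3 stood at 7.59, 7.09 and 6.92 in control replicates 1, 2 and 3 and at 8.86, 8.71 and 9.97 in low arginine replicates 1, 2 and 3. The groups were apart, with 1.12 between the highest control and the lowest low arginine array, and low arginine replicate 3 lay well above the others of its group. The means were 7.20 ± 0.35 (SD, n = 3) and 9.18 ± 0.69, a rise of 1.98 (standard error 0.33; 95% interval 1.21 to 2.76; limma adjusted p = 0.0117). By absolute difference Foxp3 ranked 118 among the 14787 genes tested. Without control replicate 2 the rise was 1.93 and did not pass (limma adjusted p = 0.0593), and without any other single array it was 1.59 to 2.22 and passed. RNA of a whole culture cannot tell more Foxp3+ cells from more Foxp3 RNA per cell, and this holds for each gene described here.

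The RefSeq table of start sites (build GRCm38.p6) held 4 of the 8 genes, the same 4 that rose, and 2 of its start sites belong to Foxp3. The 250 bases before each start were searched on both strands for 7 motifs: forkhead (TGTTTAC), AP-1 (TGANTCA), the NFAT core (GGAAA), STAT (TTCNNNGAA), RUNX (TGTGGT), the TATA box (TATAAA) and the C/EBP-ATF composite site of the amino acid response (TGATGNAA). The windows of Foxp3 and Nrp1 are shown because they held matches, and capitals mark the matched letters. They lie on the plus strand at chrX:7579426-7579675 and chrX:7580233-7580482 for Foxp3 and at chr8:128358823-128359072 for Nrp1.

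Foxp3, start site 1: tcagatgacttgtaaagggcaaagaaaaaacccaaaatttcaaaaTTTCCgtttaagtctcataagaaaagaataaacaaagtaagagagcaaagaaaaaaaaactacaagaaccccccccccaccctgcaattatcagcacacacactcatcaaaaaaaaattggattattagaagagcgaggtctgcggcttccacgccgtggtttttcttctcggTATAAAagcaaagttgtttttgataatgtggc

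Foxp3, start site 2: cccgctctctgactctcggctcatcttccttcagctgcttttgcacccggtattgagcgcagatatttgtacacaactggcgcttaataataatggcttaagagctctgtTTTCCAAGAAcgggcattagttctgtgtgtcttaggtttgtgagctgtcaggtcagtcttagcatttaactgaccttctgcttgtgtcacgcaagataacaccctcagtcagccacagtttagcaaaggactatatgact

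Nrp1: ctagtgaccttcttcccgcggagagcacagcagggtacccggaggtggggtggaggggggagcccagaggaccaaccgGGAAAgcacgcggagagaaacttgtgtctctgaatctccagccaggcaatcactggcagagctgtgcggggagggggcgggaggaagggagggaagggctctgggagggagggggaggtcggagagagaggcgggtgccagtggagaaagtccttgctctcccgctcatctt

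The window of start site 1 of Foxp3 held a TATA box from base 32 to base 27 before the start and an NFAT core, on the minus strand, from base 205 to base 201. The window of start site 2 held an NFAT core on the minus strand and a STAT motif that overlap, from base 140 to base 131 before the start. In Nrp1 the NFAT core lay from base 172 to base 168. None of the 7 motifs was found in the windows of Gpr83 and Rgs16. Over all 32851 windows of that length, 55.6% held the NFAT core, 12.4% the TATA box, 7.02% the STAT motif, 14.0% the RUNX motif, 6.75% the AP-1 motif, 3.45% the composite site and 3.17% the forkhead motif. The share of G and C was 37.6% and 46.0% in the Foxp3 windows and 64.4%, 66.8% and 66.4% in those of Nrp1, Gpr83 and Rgs16. A match is a run of letters and no evidence of binding.

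Ikzf2 and Ikzf4 encode Helios and Eos, zinc finger transcription factors of the Ikaros family that are abundant in regulatory T cells, Eos being a partner of Foxp3 in silencing genes. Ikzf2 stood at 5.35, 6.62 and 6.64 in control replicates 1, 2 and 3 and at 6.15, 6.43 and 6.995 in low arginine replicates 1, 2 and 3. The groups overlapped, and control replicate 1 was the lowest array. The difference was 0.32 (95% interval -0.53 to 1.18; limma adjusted p = 0.65), and without control replicate 1 it was -0.10 (adjusted p = 0.798), so that its sign rests on that array.

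Ikzf4 stood at 6.495, 7.39 and 7.11 in the controls and at 7.71, 7.63 and 8.55 in low arginine. The groups did not overlap, but only 0.24 lay between control replicate 2 and low arginine replicate 2. The means were 7.0 ± 0.46 (SD, n = 3) and 7.97 ± 0.51, a difference of 0.97 that did not pass (95% interval 0.27 to 1.66; limma adjusted p = 0.0794). It did not pass with any array left out either, where the difference ran from 0.67 to 1.16 (adjusted p = 0.0991 to 0.21).

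Nrp1 encodes neuropilin-1, a surface co-receptor for semaphorins and vascular endothelial growth factor that marks many thymus-derived regulatory T cells of mice. It stood at 3.30, 3.09 and 3.00 in control replicates 1, 2 and 3 and at 4.83, 4.504 and 5.60 in low arginine replicates 1, 2 and 3. The control arrays lay close together and within 1 log2 unit of the dim limit, so the size of the rise is uncertain, and low arginine replicate 3 was again the highest. The means were 3.13 ± 0.15 (SD, n = 3) and 4.98 ± 0.56, a rise of 1.85 (95% interval 1.24 to 2.46; limma adjusted p = 0.00669). The rise passed with every single array left out, at 1.54 to 2.09.

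Gpr83 encodes a G protein-coupled receptor that is enriched in regulatory T cells. It stood at 6.71, 6.60 and 6.12 in the controls and at 8.16, 7.90 and 8.62 in low arginine. The groups were 1.19 apart at their nearest arrays. The means were 6.48 ± 0.31 (SD, n = 3) and 8.23 ± 0.36, a rise of 1.75 (95% interval 1.24 to 2.26; limma adjusted p = 0.00474), the lowest adjusted p of the 8 genes. It passed with every single array left out, at 1.55 to 1.91.

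Lrrc32 encodes GARP, which holds latent transforming growth factor beta on the surface of activated regulatory T cells. It stood at 6.93, 7.44 and 6.83 in the controls and at 7.78, 7.42 and 8.52 in low arginine. Control replicate 2 and low arginine replicate 2 were nearly equal, so the groups overlapped by 0.02. The difference was 0.84 and did not pass (95% interval 0.17 to 1.5; limma adjusted p = 0.102), and without low arginine replicate 3 it was 0.53 (adjusted p = 0.241).

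Itgae encodes the integrin chain CD103, which with the beta 7 chain binds E-cadherin and retains T cells in epithelia. It stood at 3.26, 3.21 and 3.46 in the controls and at 3.09, 3.47 and 4.003 in low arginine. The groups overlapped, low arginine replicate 1 being the lowest array and replicate 3 the highest. The difference was 0.21 (95% interval -0.31 to 0.72; limma adjusted p = 0.622), and without low arginine replicate 3 it was -0.035 (adjusted p = 0.94). All of its values were within 2 log2 units of the dim limit.

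Rgs16 encodes a protein that speeds GTP hydrolysis by G protein alpha subunits and so shortens signals from chemokine receptors. It stood at 5.03, 5.24 and 6.09 in control replicates 1, 2 and 3 and at 6.71, 7.38 and 7.68 in low arginine replicates 1, 2 and 3. The groups were apart by 0.62, and control replicate 3 was the highest control. The means were 5.45 ± 0.56 (SD, n = 3) and 7.25 ± 0.50, a rise of 1.80 (95% interval 1.04 to 2.56; limma adjusted p = 0.0142). Rgs16 lost its call when control replicate 2 was left out (1.69, adjusted p = 0.0705), and likewise with low arginine replicate 2 (1.74, 0.0695) or 3 (1.59, 0.0628) left out.

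**Figure D2:**
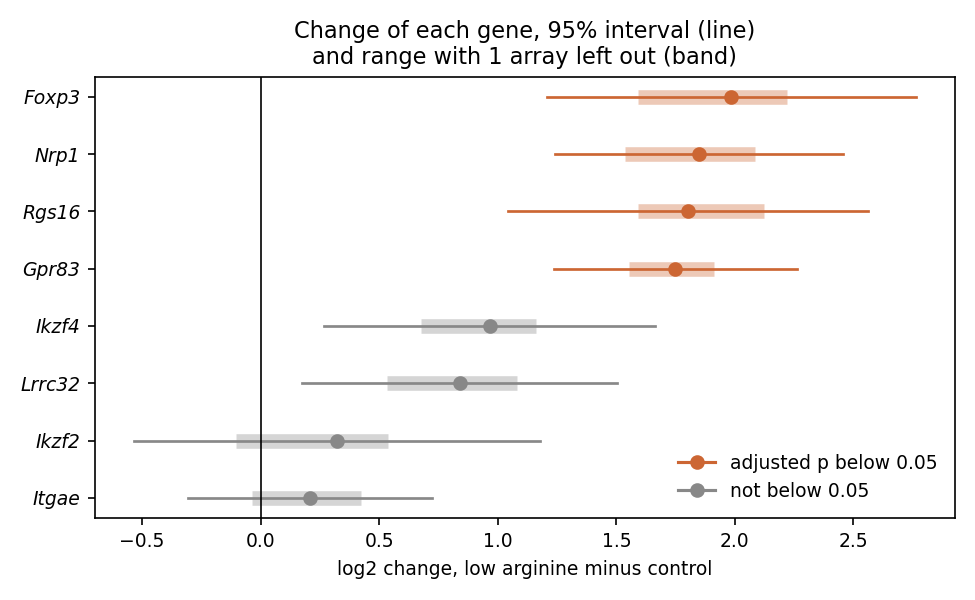
Log2 change of each gene in low arginine minus control (horizontal axis), with the 95% interval from limma as a line and the range of the change with 1 array left out as a band. Foxp3, Nrp1, Rgs16 and Gpr83 lie at 1.75 to 1.98, while the bands of Ikzf2 and Itgae reach below 0.

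The 8 genes shared 1 high array. Low arginine replicate 3 held the highest value of the 6 arrays for 8 of 8 genes, against 16.5% of all genes tested and 42.9% of the 767 genes that rose. It exceeded the next array by over 0.5 for 5 of them (Foxp3, Ikzf4, Nrp1, Lrrc32 and Itgae), against 0.622% of all genes tested. Relative to each gene's mean over the 6 arrays, the median over the 8 genes was 1.17 in low arginine replicate 3, 0.32 and 0.30 in low arginine replicates 1 and 2, and -0.70, -0.48 and -0.51 in control replicates 1, 2 and 3. Without low arginine replicate 3 the changes of the 4 risen genes were 1.54 to 1.59, and 3 of them passed. Low arginine replicates 1 and 2 had no shared order, replicate 2 being the higher for Ikzf2, Itgae and Rgs16 and replicate 1 for the other 5 genes. The pattern was noticed in these values before it was counted, and the 8 genes share the same arrays. The Y-linked genes Eif2s3y, Kdm5d and Uty were lowest in replicate 3 of both groups, Uty at 1.97 in the control and 1.72 in low arginine. Control replicate 3, which shares this trait, was the lowest array for 4 of the 8 genes, against 22.6% of all genes tested. Whether the sex of the mice bears on the pattern was not tested.

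**Figure D3:**
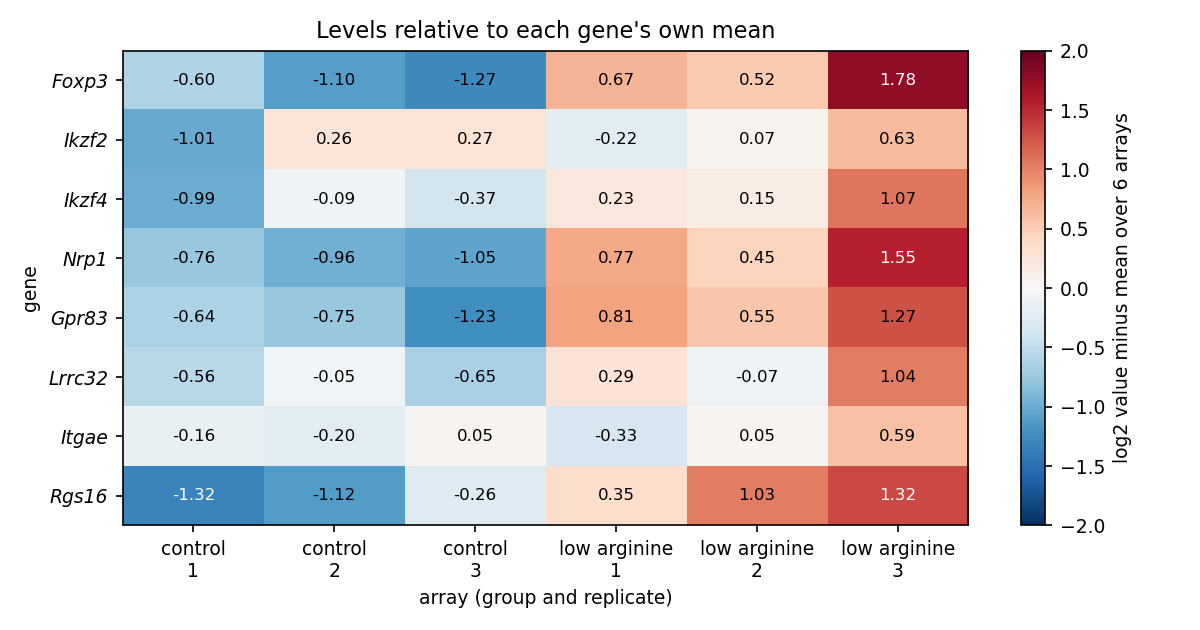
Log2 value of each gene in each array minus the gene's mean over the 6 arrays, from blue (below) to red (above), with the value in each cell. The column of low arginine replicate 3 is the highest in every row, from 0.59 for Itgae to 1.78 for Foxp3.

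The genes whose profile over the 6 arrays lay closest to that of Foxp3 were sought by the mean absolute difference between profiles, each centred on its own mean. Among 14786 other genes, Nrp1 came first at a distance of 0.15 log2 units and Gpr83 next at 0.18, followed by Skil (0.19), Anxa3 (0.24) and Cpd (0.25). Skil encodes SnoN, a repressor that binds SMAD proteins, Anxa3 an annexin and Cpd a carboxypeptidase. Skil rose from 4.504 ± 0.52 (SD, n = 3) to 6.51 ± 0.58 (limma adjusted p = 0.0117), a call lost with replicate 2 of either group left out (0.0599 for the control and 0.0531 for low arginine). Anxa3 rose by 2.22 (limma adjusted p = 6.76e-04), a size that is uncertain because its control mean of 2.35 lies under the dim limit and only the low arginine arrays carried it past the filter, and Cpd by 1.60 (0.0138; 0.0658 without control replicate 2). Of the other members Rgs16 ranked 97, Lrrc32 205, Ikzf4 396, Itgae 3356 and Ikzf2 6449. The profiles were not scaled, so genes whose rise is near that of Foxp3 tend to rank close to it. The members were chosen with results of these data known, so their ranks describe them and are no test.

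**Figure D4:**
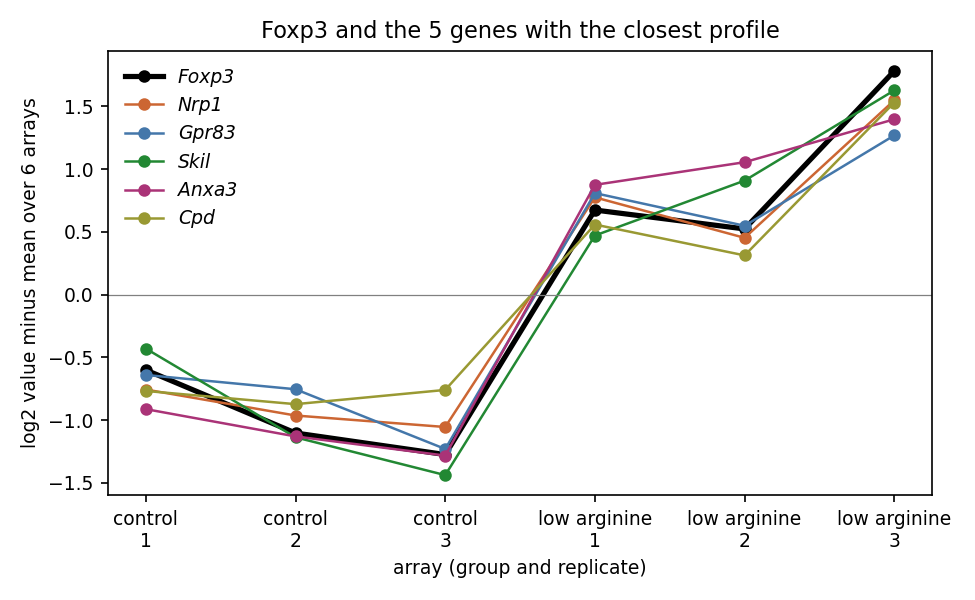
Log2 value minus the gene's mean over the 6 arrays (vertical axis) in each array for Foxp3 (thick black line) and the 5 genes with the closest profile. In each of the 6 genes the 3 control arrays lie below 0 and the 3 low arginine arrays above it, with replicate 3 highest.

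Of 31 further genes of the regulatory T cell programme tested, 6 fell (19.4%, beside 6.98% of all genes tested), 2 rose and 23 did not pass, with a median difference of -0.081. The share that rose, 6.45%, is near the 5.19% of all genes tested. The falls were led by Tigit and Entpd1, an inhibitory receptor and the ectoenzyme CD39 that degrades ATP, and by Ctla4, the inhibitory receptor through which regulatory T cells restrain antigen-presenting cells. Ctla4 stood at 7.72, 8.06 and 7.99 in the controls and at 6.20, 6.27 and 6.43 in low arginine. Its groups were far apart, in the opposite direction to Foxp3, and it fell by 1.62 (limma adjusted p = 8.26e-04). Tigit fell by 1.84 (adjusted p = 0.00746) and Entpd1 by 1.79 (0.00211).

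The other 3 genes that fell, named after their values were seen, were Tnfrsf9 (-1.46), Prdm1 (-1.36) and Xbp1 (-0.76). Xbp1 missed the threshold when control replicate 2 or 1 of the low arginine arrays was left out (limma adjusted p = 0.0546 to 0.0756), and the other 5 falls passed with every single array left out. The rises were in Cd83, an activation marker, by 0.86 (adjusted p = 0.0341), and in Itgb8, an integrin chain that activates latent transforming growth factor beta, by 0.54 (0.0451). Cd83 missed the threshold in the same 4 cases as Xbp1 (limma adjusted p = 0.0947 to 0.127), and also after quantile normalization (0.0545). Itgb8 passed only without control replicate 1 among the arrays left out, where its adjusted p reached 0.161, and missed the threshold under quantile normalization and both centrings (0.0616 to 0.0829). Il2ra, the interleukin 2 receptor chain CD25 that regulatory and activated T cells share, was at 10.59 to 11.09 in the controls and 10.70 to 11.00 in low arginine, a difference of 0.022 (adjusted p = 0.952) whose sign turned in 5 of 15 alternatives, among them median and 75th percentile centring. Tnfrsf18, the receptor GITR, differed by -0.18 (0.362) and Tgfb1 by 0.039 (0.918), with its sign turned in 3 of 15 alternatives, 75th percentile centring among them.

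**Figure D5:**
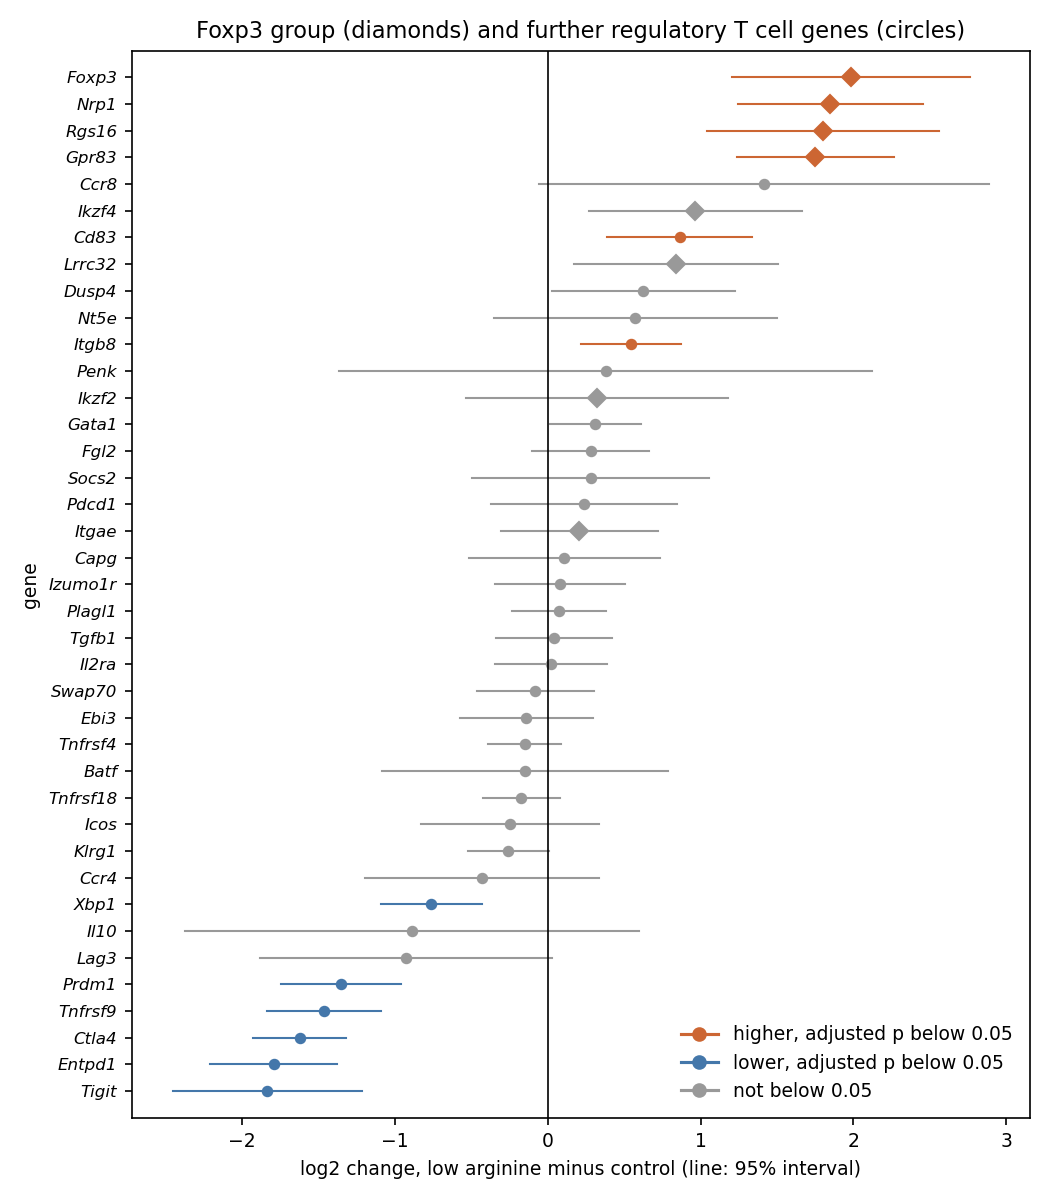
Log2 change in low arginine minus control with its 95% interval (horizontal axis) for the 8 genes (diamonds) and the 31 further regulatory T cell genes tested (circles). Diamonds take the top 4 places, while Tigit, Entpd1, Ctla4, Tnfrsf9 and Prdm1 lie at the bottom.

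Factors that induce Foxp3 or act with it had a median difference of 0.29. Of 40 tested, 4 rose (10.0%, beside 5.19% of all genes tested) and 2 fell (5.0%, beside 6.98%). The groups did not overlap, low arginine being higher, for 18 of the 40, where the share over all genes tested is 16.0%. Rel, an NF-kappa B subunit needed for Foxp3 induction, rose by 0.89 (limma adjusted p = 0.032), Stat5a, which carries the interleukin 2 signal, by 0.72 (0.0199) and the histone methyltransferase Kmt2d by 0.69 (0.0204). The other, Foxo1, was named after its values were seen and did not pass when its probe sets were averaged (limma adjusted p = 0.121). Id2, an inhibitor of E proteins, fell by 1.59 (0.0305) and the Runt factor Runx3 by 0.76 (0.0373). These counts moved with single arrays. Leaving out control replicate 1 gave 9 rises and 4 falls, control replicate 2 gave 0 and 0, and control replicate 3 gave 7 and 1. Leaving out low arginine replicate 1 gave 1 rise and 2 falls, replicate 2 gave 0 and 0, and replicate 3 gave 0 and 1. Satb1, a chromatin organiser that Foxp3 represses, differed by -0.039 (adjusted p = 0.912), with its sign turned under array weights and without control replicate 1 or low arginine replicate 3.

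Of 14 genes tested that regulatory T cells keep low, 5 rose (35.7%, beside 5.19% of all genes tested) and 2 fell (14.3%, beside 6.98%), with a median of 0.078. Il2, which Foxp3 represses in regulatory T cells, stood at 2.60, 2.04 and 2.31 in the controls and at 6.75, 6.89 and 4.93 in low arginine. Low arginine replicate 3, the array with the most Foxp3, had the least Il2 of its group, a difference seen in 1 array and not tested. Il2 rose by 3.88 (limma adjusted p = 0.0046). Its control arrays average 2.32, under the dim limit, so it passed the filter only through the low arginine arrays and the size of the rise is uncertain.

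Igfbp4 rose by 1.42 (limma adjusted p = 0.0167) and the cytokine Il17a by 1.19 (0.0197). The Il17a controls, at 2.63, 3.40 and 3.00, lay within 1 log2 unit of the dim limit, so the size of its rise is uncertain. Tnf and Lef1, named after their values were seen, rose by 1.18 (0.00639) and 0.86 (0.0036) and passed with every single array left out. Il7r, the interleukin 7 receptor, fell by 1.18 (0.0109) and Tbx21, the T helper 1 factor T-bet, by 1.2 (0.0466). Igfbp4 missed the threshold with replicate 2 of either group left out (limma adjusted p = 0.0703 and 0.0512), and Il17a and Il7r with low arginine replicate 2 (0.088 and 0.053) or 3 (0.0837 and 0.0515) left out. Tbx21 passed with low arginine replicate 2 left out (0.0457) and with no other array left out (0.0542 to 0.139).

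Among relatives and partners of the 8 genes, 2 of 26 tested rose (7.69%, beside 5.19% of all genes tested) and 4 fell (15.4%, beside 6.98%), with a median of -0.031. Foxp1, the forkhead relative that keeps naive T cells quiescent, rose by 0.65 (limma adjusted p = 0.0137; missed at 0.0523 to 0.0664 with replicate 2 of either group or low arginine replicate 3 left out), and Foxp4 differed by 0.33 (0.109). Of the other Ikaros factors, Ikzf5 rose by 0.45 (0.0313) but, of the arrays left out in turn, passed only with control replicate 1 left out. Ikzf5 also missed under 75th percentile centring (0.0741) and with a trended and robust prior (0.0532). Ikzf1 differed by 0.20 (0.237) and Ikzf3 by -0.049 (0.86), the latter turning sign with control replicate 3 left out. The integrin partner of Itgae, Itgb7, differed by -0.10 (limma adjusted p = 0.79), and its sign turned with control replicate 3 left out as well.

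No other RGS gene on the list rose. Rgs11 fell by 1.70 (limma adjusted p = 0.00606) and Rgs3 by 0.56 (0.0267), the latter passing only without control replicate 1 among the arrays left out. Rgs1 differed by -0.11 (adjusted p = 0.891), with its sign turned when low arginine replicate 1 or 2 was left out, and Rgs2 by 0.0081 (0.991), with its sign turned in 7 of 15 alternatives. Tgfb3, a ligand that GARP can hold, stood at 3.56, 5.63 and 5.63 in the controls and fell by 2.14 (0.0364), to within 1 log2 unit of the dim limit. Tgfb3 passed with control replicate 1 left out, where the fall was 2.83, and missed the threshold with each other array left out (0.0909 to 0.134). Gnai2, a G protein subunit named after its values were seen, fell by 0.37 (0.0452), passed only without control replicate 1 among the arrays left out, and missed the threshold after quantile normalization (0.0649). Nrp2 was under the dim limit and was not tested.

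Nrp1 and Itgae are also expressed by dendritic cells, Itgae by CD8 T cells and Lrrc32 by platelets and endothelium, so markers of these cells were read beside them. The antibodies used before the culture and the purification after it act on several of these cells. Of 9 dendritic cell and macrophage markers tested, 0 passed, and their mean log2 level over 13 genes was 2.79 to 2.94 in the controls and 2.83 to 2.93 in low arginine. The brightest, Bst2, differed by 0.057 (limma adjusted p = 0.93), with its sign turned under quantile normalization, under 75th percentile centring and without control replicate 3, and Batf3 by -0.73 (0.142), which passed with array weights and with control replicate 3 left out. Of the 9 tested, 6 differed by more than 0, beside 7624 of all 14787 genes tested. For 2 of the 9 the groups did not overlap, low arginine being higher, beside 16.0% of all genes tested. These were Xcr1 (0.17, limma adjusted p = 0.351) and Csf1r (0.18, 0.364), named after their values were seen. Both lay within 1 log2 unit of the dim limit. Lyz2, Cd14, Adgre1 and Siglech were under the dim limit. For B cells, 0 of 5 passed (means 2.502 to 2.61 and 2.51 to 2.57), Blk differing by 0.28 (0.229) and the brightest, Cd79b, by 0.019 (0.948), a sign that turned in 5 of 15 alternatives.

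For endothelium and platelets 0 of 6 passed (means 3.11 to 3.41 and 3.11 to 3.14), and the brightest, Pecam1, which T cells also carry, differed by 0.17 (limma adjusted p = 0.501). Ppbp, a platelet chemokine under the dim limit on average, was at 3.63 in control replicate 1 and at 2.06 to 2.17 in the other arrays. Of 7 CD8 and NK markers tested, 1 fell, Nkg7, by 0.67 (adjusted p = 0.023), and missed the threshold in 4 of the 6 cases with 1 array left out (limma adjusted p up to 0.1). Cd8a differed by -0.61 (0.241) and passed without control replicate 1 (-0.95, 0.00872). Eomes differed by 0.79 (0.0779) and passed without control replicate 1 (1.04, 0.00573), and both also passed with array weights. Cd8b1, named after its values were seen, stood at 6.52, 7.15 and 7.03 in the controls and at 6.06, 6.47 and 6.18 in low arginine. Its difference of -0.66 did not pass (limma adjusted p = 0.0632). The mean log2 level of the CD8 and NK markers was 3.85 to 4.10 in the controls and 3.78 to 3.87 in low arginine. The part of all these cells in the results above was not tested.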

How the data were processed

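Per the labels, total RNA was biotin labelled and measured on 1-colour arrays. The authors deposited log2 expression values for each probe set, and the submitters' processing notes name the package oligo (version, background correction, normalization, summarization, log base: not given in the sources used here). Base 2 was inferred from their range. Sorted, the arrays differed by at most 0.199, so their distributions were nearly equal. Of 41345 probe sets, 23521 carried 1 gene symbol, 1814 several and 16010 none, and the brightest of a gene's probe sets of 1 symbol stood for it. A probe set that names Foxp3 together with 2 other genes was not used. Without detection calls, background was not tested per probe set, and the number of arrays limits the precision.

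The comparison was made in R 4.3.3 with limma 3.58.1 (lmFit and eBayes, two-sided, group as the only term), after the script had been tested on simulated data. The simulated noise was independent for each gene and array. It held no array that stood apart and no effect shared by equal replicate numbers, so it does not cover these traits of the data. Adjusted p values are Benjamini-Hochberg values over 14787 genes, with a threshold of 0.05, and the p-values measure the spread between these samples. Changes are low arginine minus control, and lists were only counted.

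The members and lists were chosen with earlier results of these data known, and the motifs after the changes were seen. Named genes were the 8 members, the 3 largest rises and 3 largest falls of each of the 4 lists of known roles, the brightest and most different marker of each other cell type, 16 genes and Cd3e and Cd4 whatever their result, and the 5 genes closest to Foxp3. The alternatives were quantile normalization, centring on the median or 75th percentile, no filter or a share of 0.5 of genes left out as dim, the mean of probe sets, a trended and robust prior, weighting of arrays, the replicate number as a block, and each array left out. Figures were drawn with matplotlib 3.10.9.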

Additional observations from a re-analysis of the deposited data

How the results depend on the processing

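All 4 rises (Foxp3, Nrp1, Gpr83 and Rgs16) passed, and Ikzf4, Lrrc32, Ikzf2 and Itgae did not, under each of the 9 alternatives that keep all arrays. With 1 array left out, 2 to 4 of the 8 genes rose and 0 fell. Foxp3 then ran from 1.59 to 2.22 and Rgs16 from 1.59 to 2.12, while Ikzf2 (-0.10 to 0.54) and Itgae (-0.035 to 0.42) changed sign. With array weights Ikzf2 was at -0.050. The weights were 0.239, 5.19 and 0.506 for control replicates 1, 2 and 3 and 1.02, 1.45 and 1.08 for low arginine. The results with array weights therefore rest, on the control side, mainly on control replicate 2.

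The main comparison left the arrays unpaired, and shared mice behind equal replicate numbers are neither stated nor excluded by the sources used here. Deviations from the group means correlated at 0.12, 0.059 and 0.14 for equal numbers and at -0.13 to 0.043 for unequal ones. Every array correlated best with its own number. The Y-linked gene Eif2s3y stood at 6.85, 4.75 and 2.59 in control replicates 1, 2 and 3 and 5.89, 4.96 and 2.44 in low arginine. Kdm5d (4.90, 3.37 and 2.64, then 5.24, 3.55 and 2.18) and Uty (5.44, 4.14 and 1.97, then 5.53, 3.93 and 1.72) kept the same order. These values are a hint from the data that equal numbers may share mice, which was not tested. With the replicate block the 4 rises kept their calls (Foxp3 adjusted p = 0.0219), 1568 genes changed, inducers of Foxp3 had 7 rises and 5 falls, and the further programme genes and the relatives had 1 rise each. Itgb8 (adjusted p = 0.0553), Ikzf5 (0.0607) and Gnai2 (0.0904) lost their calls under this block.

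With 1 array left out, 498 to 3330 genes changed, 160 to 1629 higher and 337 to 1701 lower. Further programme genes then had 0 to 4 rises, inducers 0 to 9 rises and 0 to 4 falls, genes held down 3 to 5 rises and 0 to 2 falls, and relatives 0 to 4 rises and 1 to 6 falls. With array weights 5514 genes changed (2777 higher, 2737 lower), with 5 rises among programme genes, 16 rises and 8 falls among inducers, and 6 and 8 among relatives. Programme genes had 1 rise under median or 75th percentile centring and 0 after quantile normalization, relatives 1 rise under 75th percentile centring or a trended prior, and genes held down 1 fall with no filter.

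Differences near 0 changed sign. Under quantile normalization Rgs2 was at -0.071, Cd79b at -0.027 and Bst2 at -0.0063. Under median centring Rgs2 was at -0.028, Il2ra at -0.014 and Cd79b at -0.017. Under 75th percentile centring Tgfb1 was at -0.021, Rgs2 at -0.052, Il2ra at -0.038, Cd79b at -0.041 and Bst2 at -0.0030. With array weights Rgs2 was at -0.30, Satb1 at 0.093 and Cd79b at -0.021. With 1 array left out, Rgs2 ran from -0.33 to 0.19, Satb1 from -0.11 to 0.085, Il2ra from -0.083 to 0.17, Tgfb1 from -0.11 to 0.19, Bst2 from -0.24 to 0.37, Cd79b from -0.088 to 0.084, Rgs1 from -0.55 to 0.21, Ikzf3 from -0.16 to 0.026 and Itgb7 from -0.30 to 0.020. The cause was not tested.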

Other observations

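Other listed genes were also highest in low arginine replicate 3. Of 111 listed genes tested, 10 were highest there by over 0.5 on the log2 scale (9.01%), against 0.622% of all genes tested. These genes were chosen by this pattern after the values were seen. Nt5e, the ectoenzyme CD73, stood at 3.69, 4.35 and 4.42 in the controls and at 4.41, 4.09 and 5.68 in low arginine, and Tgfbr1, a receptor of transforming growth factor beta, at 4.97, 4.75 and 4.83 and at 5.55, 5.35 and 6.67. Ccr8, a chemokine receptor of regulatory T cells, was high in control replicate 1 as well (7.69, against 5.51 and 5.65 in the other controls) and stood at 7.53, 6.91 and 8.65 in low arginine. The others were Socs2, Capg, Dusp4, Pdcd1, Smad7, Igfbp4 and Rgs1, of which Igfbp4 alone passed the comparison of the groups.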
